A study of Homo sapiens with 9 samples.

Results

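The genes described here are 45 genes of the lysosome: its proteases, its other hydrolases with their activators, its membrane proteins and channels, the transcription factors of the MiT/TFE family, and subunits of the proton pump. They were chosen by name, and each was measured by the brightest probe set that the platform annotation assigns to that gene alone. Of the 45 genes, 42 were measured in this way, among 19775 genes in all. No probe set names IFI30 here, and GLB1 and CD68 are named only together with another gene, so these genes have no value.

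The arrays were HG-U133 Plus 2.0 arrays of BL2, an established human Burkitt lymphoma line derived from germinal centre B cells. Cells had been treated with recombinant human CD40L (200 ng/ml) for 6 hrs, with LPS (1 uM) for 6 hrs, or with nothing (control). The labels give no culture time for the control, so whether it matched the 6 hrs of the treated cells is not known. Each condition had 3 arrays, 1 from each of 3 batches that the labels number as biological replicates, so that arrays of the same number are paired. All values are from a single cell line, and the CD40L and LPS comparisons share the same 3 control arrays.

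Lysosomes are acidified by the vacuolar ATPase, and their cathepsins, glycosidases, sulfatases and lipases work best at low pH. In B cells the compartment degrades antigen taken up through the B cell receptor, and cysteine proteases cut the invariant chain so that MHC class II can be loaded with peptide. TFEB, TFE3 and MITF bind E-boxes in the promoters of many lysosomal genes, and mTORC1 at the lysosomal surface holds TFEB in the cytoplasm.

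Because TFEB is one of the genes measured, the promoters were searched for the E-box CACGTG, for its extended form TCACGTGA, and for a form of the NF-kB consensus in which 2 free bases stand between GGG and TTTCC, on both strands. RefSeq promoter windows (GRCh38.p14) were at hand for 31 of the 45 genes, and the 250 bases before each start were read. The E-box was present in 10 of the 31 genes (32.3%), against 7.73% of the 27305 genes with such a window, where a gene with several windows counted once if any of them held it. The 10 genes were CTSA, CTSD, IFI30, GAA, NEU1, LAMP1, CD63, CLN3, MCOLN1 and ATP6V0D1. The extended form, which contains the E-box, was present in 5 of the 31 genes (16.1%), against 1.04% of all genes. The NF-kB form was found in 0 of the 31 genes and in 2.12% of all genes, which says only that these letters were not in these windows. The 60 bases around the first E-box are given here for NEU1, which passed the threshold under both stimuli, and for the 5 genes with the extended form. Each is written from 5′ to 3′ in the direction of the gene, with E-boxes in capitals.
NEU1: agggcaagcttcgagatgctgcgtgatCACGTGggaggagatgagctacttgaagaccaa
CTSA: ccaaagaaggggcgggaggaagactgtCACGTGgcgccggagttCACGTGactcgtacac
GAA: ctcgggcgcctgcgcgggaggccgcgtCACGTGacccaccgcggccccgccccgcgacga
LAMP1: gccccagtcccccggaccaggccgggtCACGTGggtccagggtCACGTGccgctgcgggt
MCOLN1: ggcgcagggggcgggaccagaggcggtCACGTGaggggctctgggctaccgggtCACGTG
ATP6V0D1: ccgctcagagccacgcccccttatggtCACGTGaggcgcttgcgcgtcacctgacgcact

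These stretches lie at chr6:31862915-31862974 on the minus strand for NEU1, chr20:45891266-45891325 on the plus strand for CTSA, chr17:80101478-80101537 on the plus strand for GAA, chr13:113297020-113297079 on the plus strand for LAMP1, chr19:7522556-7522615 on the plus strand for MCOLN1 and chr16:67481184-67481243 on the minus strand for ATP6V0D1. The NEU1 E-box begins 126 bases before the start of the gene. LAMP1 has 5 E-boxes in its 250 bases, and the nearest of them, 28 bases before the start and outside the stretch printed, is the one with the extended form. In CTSA the second E-box printed has the extended form, and in ATP6V0D1 the only one has it. In GAA and MCOLN1 both E-boxes of the 250 bases have it. The second of GAA lies outside the stretch printed, as does the last base of the second extended form of MCOLN1. A match describes the sequence and is not a measured binding site.

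Levels are given on the generalised log2 scale of the deposited values, on which 1 unit is a doubling for bright probe sets and more than a doubling for dim ones. They are not compared between genes, since each probe set has its own response. A difference is called here when the adjusted p from limma, fitted over all 9 arrays with the batch as a term, was at most 0.05. Across all 9 arrays the array medians lay between 6.42 and 6.47, and arrays of 1 condition correlated at 0.9938 to 0.9972. Of 7 B cell markers measured, none was dim, that is, below the median of all values (6.45) in every condition. Of 10 monocyte and macrophage markers 8 were dim and 0 were called by limma in any comparison, with 0 at an unadjusted p under 0.05. Of 6 T cell markers 2 were dim and 0 were called by limma, with 2 at an unadjusted p under 0.05 after CD40L, 0 after LPS and 1 between the stimuli. Over all 19775 genes 19.9% had an unadjusted p under 0.05 after CD40L, 15% after LPS and 6.27% between the stimuli. Among them LCK, a kinase of T cells that some B lymphoma cells also express, averaged 11.7 after CD40L, 11.9 after LPS and 11.9 in control. The B cell markers CD79A, CD79B, CD22, MME and CD38 fell after CD40L, by 0.45, 0.34, 0.45, 0.53 and 0.65 on the log2 scale, and 3 of the 7 fell after LPS. The other markers, PAX5 and MS4A1, were not called: PAX5 had log2 fold changes of 0.39 after CD40L (adjusted p = 0.107) and 0.31 after LPS (adjusted p = 0.339), and MS4A1 -0.04 and -0.07. Their part in the values of the lysosomal genes was not tested.

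After CD40L, 8 of the 42 genes rose and 3 fell against control. The genes that rose were the cysteine cathepsins CTSC, CTSH and CTSO, the glycosidases MAN2B1 and NEU1, the membrane proteins SCARB2 and MCOLN2, and the transcription factor TFEB. The genes that fell were the peptidase TPP1, the saposin precursor PSAP and the nuclease PLD4. Among all 19775 genes 5.03% rose and 2.92% fell, and among the 13027 genes above the median level 7.61% rose and 4.39% fell. The 42 genes had 19% higher and 7.14% lower, with 1 dim gene, CTSL. Quantile normalization moved the split over all genes to 776 higher and 964 lower, beside 995 and 578, and that of the 42 genes to 7 and 4. Their median log2 fold change was 0.0588, beside 0.00513 over all genes, and ranged from -0.47 for PSAP to 0.94 for CTSH. The 3 CD40L arrays lay above all 3 control arrays for 11 of the 42 genes and below them for 4, where 10.9% and 8.63% of all genes did so.

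After LPS, 3 of the 42 genes rose and 1 fell. NEU1, MCOLN2 and TFEB rose and TPP1 fell, and each of these also passed the threshold in the same direction after CD40L. Over all genes 1.62% rose and 1.48% fell after LPS, and among the genes above the median level 2.45% rose and 2.24% fell. The 42 genes had 7.14% higher and 2.38% lower, so the share that fell was near that of the genes above the median level. After quantile normalization 3 of the 42 rose and 3 fell, PSAP and PLD4 being added, and over all genes 358 rose and 535 fell, beside 320 and 293. The median log2 fold change of the 42 genes was 0.0405, beside 0.00176 over all genes, and the range was -0.31 for TPP1 to 0.40 for MCOLN2. The LPS arrays lay above all control arrays for 7 of the 42 genes and below them for 3, where 7.96% and 7.75% of all genes did so. Between the stimuli, CD40L minus LPS, 1 gene was higher, CTSH, and 0 were lower by limma, with 8 of 42 at an unadjusted p under 0.05, where 6.27% of all genes were. Over all genes 0.491% were higher and 0.152% lower in that comparison.

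**Figure D1:**
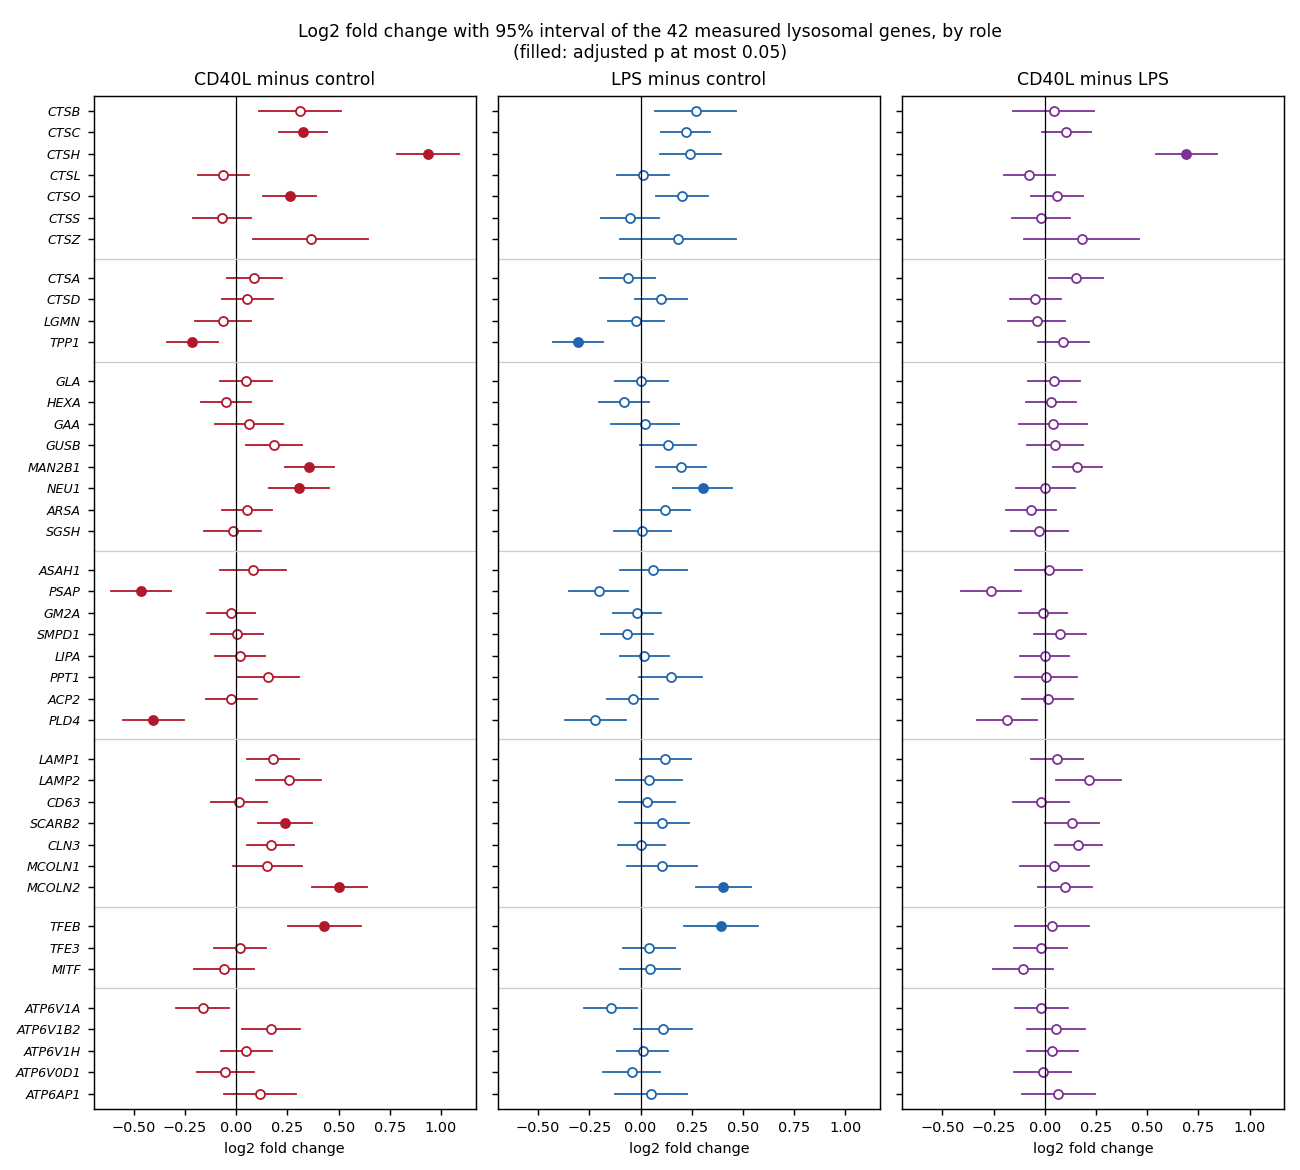
Log2 fold change (x axis) of the 42 measured genes (rows, grouped by role: cysteine cathepsins, other proteases, glycosidases and sulfatases, lipid, phosphate and nucleic acid enzymes, membrane proteins and channels, MiT/TFE factors, V-ATPase) in 3 panels, each stimulus against control and CD40L against LPS. Points are limma estimates, lines their 95% intervals and filled points an adjusted p of at most 0.05; CTSH at 0.94 after CD40L stands furthest from 0.

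Of the 7 cysteine cathepsins 3 rose after CD40L, where 5.03% of all genes did. After LPS 0 were called by limma, with 4 of 7 at an unadjusted p under 0.05, where 15% of all genes were. CTSH, which trims peptides from their amino end, had levels of 9.36, 9.46 and 9.31 after CD40L, 8.77, 8.62 and 8.67 after LPS and 8.63, 8.29 and 8.41 in control. Every CD40L array was above every other array, and the LPS and control arrays overlapped. CTSH rose by 0.94 on the log2 scale after CD40L (SE 0.0705, 95% interval 0.79 to 1.09, limma adjusted p = 5.67e-07), which is 1.91-fold. The difference was 0.73, 1.17 and 0.90 in batches 1, 2 and 3. After LPS it was 0.24 (95% interval 0.09 to 0.39, adjusted p = 0.102). The difference CD40L minus LPS was 0.69 (95% interval 0.54 to 0.84, adjusted p = 0.000111), with 0.59, 0.84 and 0.64 in the 3 batches. CTSH has 1 probe set, and both of its calls held under every alternative run.

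CTSC, the dipeptidyl peptidase that activates granule serine proteases, had 9.91, 9.80 and 9.82 after CD40L, 9.75, 9.70 and 9.76 after LPS and 9.62, 9.43 and 9.51 in control. Neither treated group overlapped with control. CTSC rose by 0.33 after CD40L (SE 0.056, adjusted p = 0.00193) and had 0.22 after LPS (adjusted p = 0.0554). The 4 probe sets of CTSC did not move alike: 1 of them, less bright at a mean of 8.48, was lower by 0.26 after CD40L (adjusted p = 0.0124) and fell by 0.28 after LPS (adjusted p = 0.0198). Only the brightest of the 4 rose after CD40L.

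CTSO, a less studied member of the family, had 7.01, 6.89 and 6.70 after CD40L, 6.85, 6.78 and 6.79 after LPS and 6.71, 6.59 and 6.51 in control. The third CD40L array was just below the first control array, so these groups overlapped, while the LPS arrays lay above control. CTSO rose by 0.26 after CD40L (SE 0.0602, adjusted p = 0.0165) and had 0.20 after LPS (adjusted p = 0.117). Without CD40L array 1, CD40L array 2 or control array 1 the CD40L adjusted p was 0.122, 0.104 and 0.0527, and without batch 1 and without batch 2 it was 0.17 and 0.0505.

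CTSB, a broad endopeptidase, had 8.76, 9.04 and 8.85 after CD40L, 8.73, 8.91 and 8.88 after LPS and 8.79, 8.39 and 8.54 in control, and its brightest probe set was not called (0.31 and 0.27, adjusted p = 0.0682 and 0.206). Control array 1 was as high as the treated arrays of its batch. Without that array the log2 fold change was 0.48 after CD40L (adjusted p = 0.00173) and 0.44 after LPS (adjusted p = 0.00861), and 1 of the other 4 probe sets rose after CD40L by 0.38 (adjusted p = 0.00473). CTSZ, a carboxypeptidase, had 7.08, 8.15 and 7.29 after CD40L, 7.19, 7.54 and 7.25 after LPS and 7.16, 7.13 and 7.14 in control. The second CD40L array carried most of the CTSZ difference of 0.36 (adjusted p = 0.155), which was 1.02 in batch 2, -0.08 in batch 1 and 0.15 in batch 3. Without batch 2 it was 0.03. Without CD40L array 1 it was 0.55 (adjusted p = 0.0424). CTSS, the main invariant chain protease of B cells, gave -0.07 after CD40L (95% interval -0.21 to 0.07) and -0.05 after LPS (95% interval -0.19 to 0.09). CTSL was dim, at 6.33 after CD40L, 6.40 after LPS and 6.39 in control, where a change would be hard to see.

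Of the 4 other proteases measured, TPP1 fell after both stimuli, where 2.92% of all genes fell after CD40L and 1.48% after LPS. TPP1 removes tripeptides from the amino end of proteins, and its levels were 8.47, 8.62 and 8.65 after CD40L, 8.46, 8.47 and 8.54 after LPS and 8.79, 8.74 and 8.85 in control. All treated arrays lay below all control arrays. The log2 fold change was -0.21 after CD40L (SE 0.058, adjusted p = 0.0402) and -0.31 after LPS (SE 0.058, adjusted p = 0.0102). Only 1 of its 4 probe sets passed the threshold under either stimulus. The CD40L call was lost without any 1 of the CD40L arrays or without control array 1 or 3 (adjusted p = 0.054 to 0.259), and the LPS call without any 1 of the LPS arrays or control array 1 (0.0671 to 0.0787). CTSA, the carboxypeptidase that protects NEU1, CTSD, the main aspartic protease, and LGMN, which cuts after asparagine, had log2 fold changes of 0.09, 0.05 and -0.06 after CD40L and -0.06, 0.10 and -0.02 after LPS, none of them called.

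**Figure D2:**
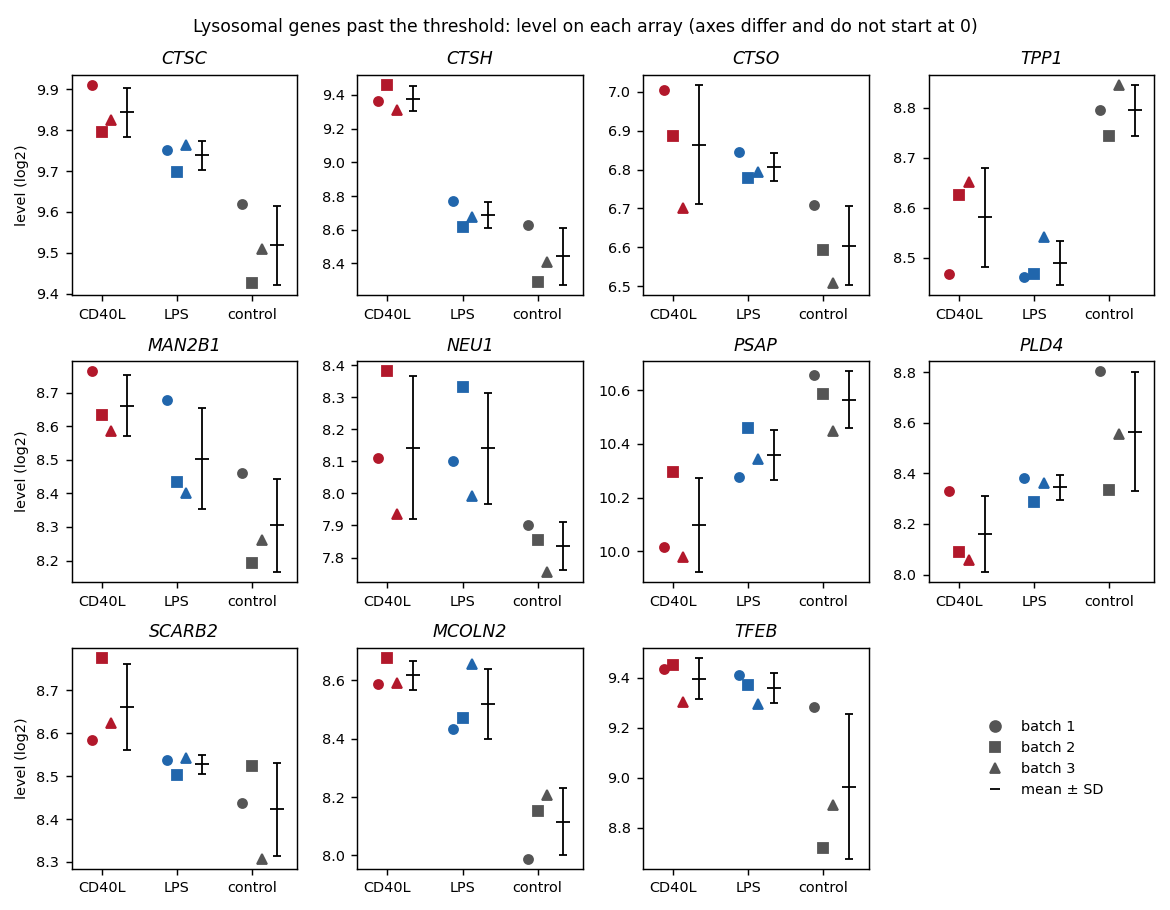
Level on the log2 scale (y axis, a separate range in each panel that does not start at 0) on every array for the 11 genes past the threshold in any comparison, with CD40L, LPS and control from left to right, the batch as the marker and the mean ± SD (n = 3) as the bar. CTSH on the CD40L arrays (9.31 to 9.46) stands clear of both other groups, while TFEB is high on all treated arrays and on control array 1 (9.28).

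Of the 8 glycosidases and sulfatases measured, 2 rose after CD40L and 1 after LPS, where 5.03% and 1.62% of all genes rose. MAN2B1, the lysosomal alpha-mannosidase, had 8.76, 8.63 and 8.59 after CD40L, 8.68, 8.43 and 8.40 after LPS and 8.46, 8.19 and 8.26 in control. The CD40L arrays were all above control, and the LPS arrays overlapped with it. Its log2 fold change was 0.36 after CD40L (SE 0.0566, adjusted p = 0.00101), between 0.30 and 0.44 in the 3 batches, and 0.20 after LPS (adjusted p = 0.0969). Of the alternatives run, only the fit without the batch term lost the CD40L call, at an adjusted p of 0.0505. NEU1, the sialidase that carries an E-box in the window shown, had 8.11, 8.38 and 7.94 after CD40L, 8.10, 8.33 and 7.99 after LPS and 7.90, 7.85 and 7.76 in control. Both treated groups were above control and close to each other on the arrays of each batch, with batch 2 highest. The log2 fold changes were 0.31 (SE 0.0681, adjusted p = 0.0128) and 0.30 (SE 0.0681, adjusted p = 0.0278), and CD40L minus LPS was 0.00 (95% interval -0.14 to 0.15). The NEU1 calls were lost without control array 2 (0.21 after CD40L, adjusted p = 0.0697, and 0.21 after LPS, adjusted p = 0.124), without CD40L array 2 (0.24, adjusted p = 0.128) and without LPS array 1, 2 or 3 (adjusted p = 0.125, 0.191 and 0.151).

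GUSB, the beta-glucuronidase, had a log2 fold change of 0.18 after CD40L (adjusted p = 0.122) and 0.13 after LPS (adjusted p = 0.433), and without control array 2 the CD40L value was 0.25 (adjusted p = 0.019). GLA, HEXA, GAA, ARSA and SGSH, whose loss causes storage diseases in people, were not called, with log2 fold changes of -0.05 to 0.06 after CD40L and -0.08 to 0.12 after LPS.

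Of the 8 enzymes and activators for lipids, phosphate esters and nucleic acids, 2 fell after CD40L, where 2.92% of all genes did. After LPS 0 were called by limma and 2 had an unadjusted p under 0.05, where 15% of all genes did. PSAP is the precursor of the saposins, which present sphingolipids to hydrolases. It had 10.02, 10.30 and 9.98 after CD40L, 10.28, 10.46 and 10.34 after LPS and 10.66, 10.59 and 10.45 in control. The CD40L arrays were all below control, and within each batch the order was CD40L, LPS, control from low to high. The log2 fold change was -0.47 after CD40L (SE 0.0685, adjusted p = 0.000507), -0.20 after LPS (adjusted p = 0.18) and -0.26 for CD40L minus LPS (adjusted p = 0.219). Both probe sets of PSAP fell by 0.47 after CD40L, and that call held under every alternative run. Without control array 2 the LPS value was -0.27 (adjusted p = 0.0342), and without batch 2 CD40L minus LPS was -0.31 (adjusted p = 0.0414).

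PLD4 degrades single-stranded nucleic acids in endolysosomes. It had 8.33, 8.09 and 8.06 after CD40L, 8.38, 8.29 and 8.36 after LPS and 8.80, 8.33 and 8.56 in control. The highest CD40L array (8.331) lay just under the lowest control array (8.333), and the LPS arrays overlapped with control. The log2 fold change was -0.40 after CD40L (SE 0.0699, adjusted p = 0.00205), with -0.47, -0.24 and -0.50 in the 3 batches, and -0.22 after LPS (adjusted p = 0.149). Its other probe set fell by 0.30 after CD40L (adjusted p = 0.00877). Without batch 3 the CD40L value was -0.36 (adjusted p = 0.0616), and without control array 2 the LPS value was -0.30 (adjusted p = 0.0106). ASAH1, GM2A, SMPD1, LIPA, PPT1 and ACP2, which act on ceramide, gangliosides, sphingomyelin, cholesteryl esters, fatty acyl groups on proteins and phosphate esters, were not called, with log2 fold changes of -0.03 to 0.15 after CD40L and -0.07 to 0.15 after LPS.

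All 7 membrane proteins and channels measured had log2 fold changes above 0 under both stimuli, beside medians over all genes of 0.00513 and 0.00176. The smallest were 0.01 for CD63 after CD40L and 0.003 for CLN3 after LPS, and another probe set of SCARB2 had -0.04 after CD40L. Of the 7, 2 were called after CD40L and 1 after LPS, where 5.03% and 1.62% of all genes rose. MCOLN2, a cation channel of endosomes and lysosomes related to MCOLN1, had 8.59, 8.68 and 8.59 after CD40L, 8.43, 8.47 and 8.66 after LPS and 7.99, 8.15 and 8.21 in control. Every treated array was above every control array. The log2 fold change was 0.50 after CD40L (SE 0.0629, adjusted p = 0.000114), a 1.42-fold difference, and 0.40 after LPS (SE 0.0629, adjusted p = 0.00253). Its other probe set gave 0.53 and 0.44 (adjusted p = 0.000432 and 0.00564). CD40L minus LPS was 0.10 (95% interval -0.03 to 0.23). The LPS call was lost without batch 1 (0.38, adjusted p = 0.0686) and without batch 3 (0.38, adjusted p = 0.0505).

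SCARB2, which carries glucocerebrosidase to the lysosome, had 8.59, 8.77 and 8.62 after CD40L, 8.54, 8.50 and 8.54 after LPS and 8.44, 8.52 and 8.31 in control. The CD40L arrays lay above control and the LPS arrays overlapped with it. SCARB2 rose by 0.24 after CD40L (SE 0.0628, adjusted p = 0.0343) and had 0.10 after LPS (adjusted p = 0.601). The CD40L call was lost without any 1 of the CD40L arrays or without control array 1 or 3 (adjusted p = 0.0527 to 0.22), while 3 of its 4 probe sets passed the threshold. LAMP1 and LAMP2, the most abundant lysosomal membrane glycoproteins, had log2 fold changes of 0.18 and 0.26 after CD40L (adjusted p = 0.101 and 0.0605). Their CD40L arrays were all above control, and 2 of the other LAMP1 probe sets rose, by 0.28 and 0.27 (adjusted p = 0.0226 and 0.00635). LAMP2 passed without CD40L array 3 (0.34, adjusted p = 0.0352) or control array 3 (0.32, adjusted p = 0.0337). CLN3, a membrane protein mutated in juvenile neuronal storage disease, had 0.17 (adjusted p = 0.0948) on its brightest probe set and 0.33 (adjusted p = 0.00226) on the other. MCOLN1, a calcium channel of the lysosome, and CD63, a tetraspanin, were not called, at 0.15 and 0.01 after CD40L and 0.10 and 0.03 after LPS.

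Of the 3 MiT/TFE factors TFEB rose after both stimuli, and TFE3 and MITF were not called. TFEB had 9.43, 9.45 and 9.30 after CD40L, 9.41, 9.37 and 9.29 after LPS and 9.28, 8.72 and 8.89 in control. All treated arrays lay above control, but control array 1 was within 0.15 and 0.13 of the CD40L and LPS arrays of its batch, against 0.73 and 0.65 in batch 2 and 0.41 and 0.40 in batch 3. TFEB rose by 0.43 after CD40L (SE 0.085, adjusted p = 0.00544) and by 0.39 after LPS (SE 0.085, adjusted p = 0.0223), and CD40L minus LPS was 0.04 (95% interval -0.14 to 0.22). The second probe set rose by 0.36 after CD40L (adjusted p = 0.00715) and had 0.27 after LPS (adjusted p = 0.0801). The CD40L call was lost under 3 of the 17 alternatives run. These were without CD40L array 2 (0.34, adjusted p = 0.0658), without batch 3 (0.44, adjusted p = 0.0856) and without the batch term. The LPS call was lost under 9 of 17, among them without LPS array 1, 2 or 3 (adjusted p = 0.0698, 0.181 and 0.155) or control array 3 (0.0574).

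TFE3 had 7.75, 7.75 and 7.89 after CD40L, 7.73, 7.81 and 7.93 after LPS and 7.68, 7.87 and 7.79 in control. MITF had 6.49, 6.62 and 6.55 after CD40L, 6.79, 6.50 and 6.70 after LPS and 6.65, 6.59 and 6.60 in control. The groups overlapped for both genes, and the 95% intervals were -0.11 to 0.15 and -0.21 to 0.09 after CD40L. Of the 6 genes with a promoter window that rose after CD40L, 1 had an E-box, NEU1, and of the 2 that fell, 0 had one. Of the 20 such genes that were not called after CD40L, 8 had an E-box. LAMP1, GAA, MCOLN1, CTSA and ATP6V0D1, the genes with the extended form, were all among these. This tally rests on the brightest probe set of each gene. Among the genes with an E-box that were not called, 2 of 4 probe sets of LAMP1 and 1 of 2 of CLN3 rose after CD40L. CTSC, counted as rising without an E-box, also had 1 of 4 probe sets lower.

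The V-ATPase pumps protons into the lysosome through a membrane sector driven by a catalytic sector. Of its 5 subunits measured 0 were called by limma under either stimulus. An unadjusted p under 0.05 was seen for 2 after CD40L and 1 after LPS, and for 19.9% and 15% of all genes. ATP6V1A, the catalytic subunit, had 10.4, 10.6 and 10.4 after CD40L, 10.5, 10.4 and 10.5 after LPS and 10.6, 10.7 and 10.6 in control. Its treated arrays were all below control, at -0.16 after CD40L (adjusted p = 0.163) and -0.15 after LPS (adjusted p = 0.332). After quantile normalization the CD40L value was -0.23 and was called (adjusted p = 0.0154). ATP6V1B2, the partner of that subunit, had 0.17 after CD40L (adjusted p = 0.202) and 0.11 after LPS. ATP6V1H, ATP6V0D1 and the accessory protein ATP6AP1 had -0.05 to 0.12 after CD40L and -0.04 to 0.05 after LPS.

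**Figure D3:**
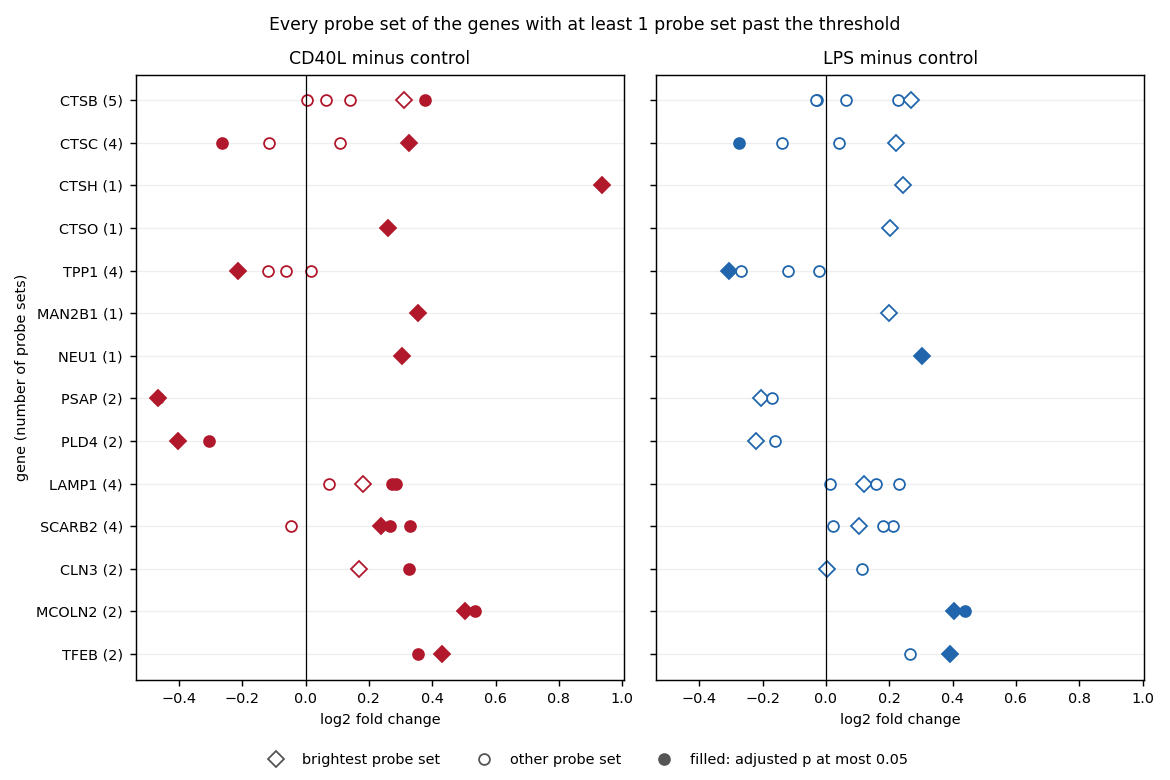
Log2 fold change (x axis) of every probe set of the 14 genes with at least 1 probe set past the threshold, for CD40L minus control and LPS minus control, with the number of probe sets in brackets. Diamonds are the brightest probe set of a gene and filled markers an adjusted p of at most 0.05; the probe sets of CTSC lie on both sides of 0, from -0.26 to 0.33 after CD40L, and those of MCOLN2 lie together.

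The alternatives bear on how many of these calls stand. Without the batch term 3 genes rose and 1 fell after CD40L, and 1 rose and 1 fell after LPS. With each gene measured by its most changed probe set, 11 rose after CD40L. Of the 16 single calls, 5 held under all 17 alternatives run for each: CTSC, CTSH, MCOLN2 and PSAP after CD40L, and CTSH for CD40L minus LPS. For CTSC and PSAP the probe set of largest change after CD40L was the brightest one, and CTSH has 1 probe set. That alternative therefore could not change their calls. Another CTSC probe set was lower after CD40L by 0.26 (limma adjusted p = 0.0124), so the CTSC call is that of its brightest probe set alone. Of the other calls after CD40L, SCARB2 was lost under 13 of the 17, TPP1 under 12, and CTSO and NEU1 under 7 each. TFEB was lost under 3, PLD4 under 2 and MAN2B1 under 1. After LPS NEU1 was lost under 10, TFEB under 9, TPP1 under 6 and MCOLN2 under 2. The losses named gene by gene above are not all of these.

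A wider list of 118 lysosomal genes outside the 45 was taken beside them, and 105 of these were measured. After CD40L 8 rose and 1 fell, which is 7.62% and 0.952%, beside 5.03% and 2.92% of all genes and 7.61% and 4.39% of those above the median level. After LPS 2 rose and 1 fell, which is 1.9% and 0.952%, beside 1.62% and 1.48% of all genes and 2.45% and 2.24% of those above the median level. Their median log2 fold change was 0.0173 after CD40L and 0.0211 after LPS. For CD40L minus LPS 0 were called by limma, with 4 at an unadjusted p under 0.05, where 6.27% of all genes were. Of 28 genes of the sorting machinery, none of them dim, 4 rose after CD40L (14.3%). These were IGF2R (0.50, adjusted p = 0.0128) and M6PR (0.25, adjusted p = 0.0243), both receptors for the mannose 6-phosphate tag of lysosomal enzymes, SORL1 (0.36, adjusted p = 0.00689), a sorting receptor, and AP3D1 (0.23, adjusted p = 0.0474), an adaptor subunit. Without CD40L array 2 none of these 4 passed (adjusted p = 0.0702 to 0.245), and further losses came without CD40L array 3 for IGF2R (0.0991), without CD40L array 1 or control array 1 for M6PR (0.166 and 0.107), and without CD40L array 1 or control array 1 or 2 for AP3D1 (0.258, 0.199 and 0.168). After quantile normalization M6PR and AP3D1 were not called (adjusted p = 0.0927 and 0.122). Without the batch term IGF2R and AP3D1 were not called (0.0517 and 0.191). With only the 2 groups fitted IGF2R, M6PR and AP3D1 were not called (0.0504, 0.0656 and 0.14). Without batch 1 only IGF2R passed, with SORL1 at 0.0655. After LPS 0 of the 28 were called by limma, with 5 at an unadjusted p under 0.05, where 15% of all genes were.

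IGF2R had 7.99, 8.34 and 8.11 after CD40L, 7.99, 8.20 and 7.89 after LPS and 7.91, 7.41 and 7.65 in control. The CD40L arrays were above control, with control array 1 the closest. Of 37 further hydrolases and membrane proteins, FUCA1, the lysosomal fucosidase, rose by 0.40 under both stimuli (adjusted p = 0.000549 after CD40L and 0.00181 after LPS), and OSTM1, the partner of a lysosomal chloride transporter, rose by 0.31 after CD40L (adjusted p = 0.0268). The OSTM1 call was lost without CD40L array 2 (0.18, adjusted p = 0.249) or control array 2 or 3 (adjusted p = 0.0683 and 0.0723). It was also lost without batch 1, 2 or 3 (0.0531, 0.213 and 0.0893) and without the batch term (0.182). The same held with the batch as a random effect (0.13) and with only the 2 groups fitted (0.0746). FUCA1 had 9.14, 9.03 and 8.83 after CD40L, 9.12, 8.96 and 8.92 after LPS and 8.64, 8.63 and 8.54 in control, so that no treated array reached down to control. Its LPS call was lost without batch 1 (0.35, adjusted p = 0.072).

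Of 18 further V-ATPase subunits 1 was called, ATP6V0A2 of the membrane sector, which rose by 0.30 after CD40L (adjusted p = 0.0044) and by 0.28 after LPS (adjusted p = 0.0142). The CD40L call was lost without batch 1 (adjusted p = 0.0611). The LPS call was lost without any 1 of the LPS arrays (adjusted p = 0.0807 to 0.132) and without batch 1 or 3 (0.187 and 0.11). It was also lost without the batch term (0.115) and with the batch as a random effect (0.071). None of 7 cystatins and other inhibitors of these proteases was called by limma. An unadjusted p under 0.05 was seen for 1 after CD40L and 0 after LPS, and for 19.9% and 15% of all genes. Of 15 genes of the Ragulator and mTORC1 at the lysosomal surface, RRAGC, a small GTPase, rose by 0.21 after CD40L (adjusted p = 0.0424), and this call was lost whichever single array of the 2 groups was left out (adjusted p = 0.0627 to 0.238). LAMTOR4, a Ragulator subunit, fell under both stimuli, by 0.35 (adjusted p = 0.00183) and 0.28 (adjusted p = 0.0221). It had 10.05, 10.06 and 10.07 after CD40L, 10.11, 10.01 and 10.28 after LPS and 10.38, 10.37 and 10.48 in control, and every treated array was below every control array. The CD40L call held under every alternative run, and the LPS call was lost without LPS array 1 or 2 (adjusted p = 0.168 and 0.194) or control array 1 or 3 (0.0735 and 0.0549). The LPS call was also lost without batch 1, 2 or 3 (0.239, 0.0764 and 0.0927) and without the batch term (0.108). The same held with the batch as a random effect (0.0703) and with the intensity trend and robust eBayes (0.0553).

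**Figure D4:**
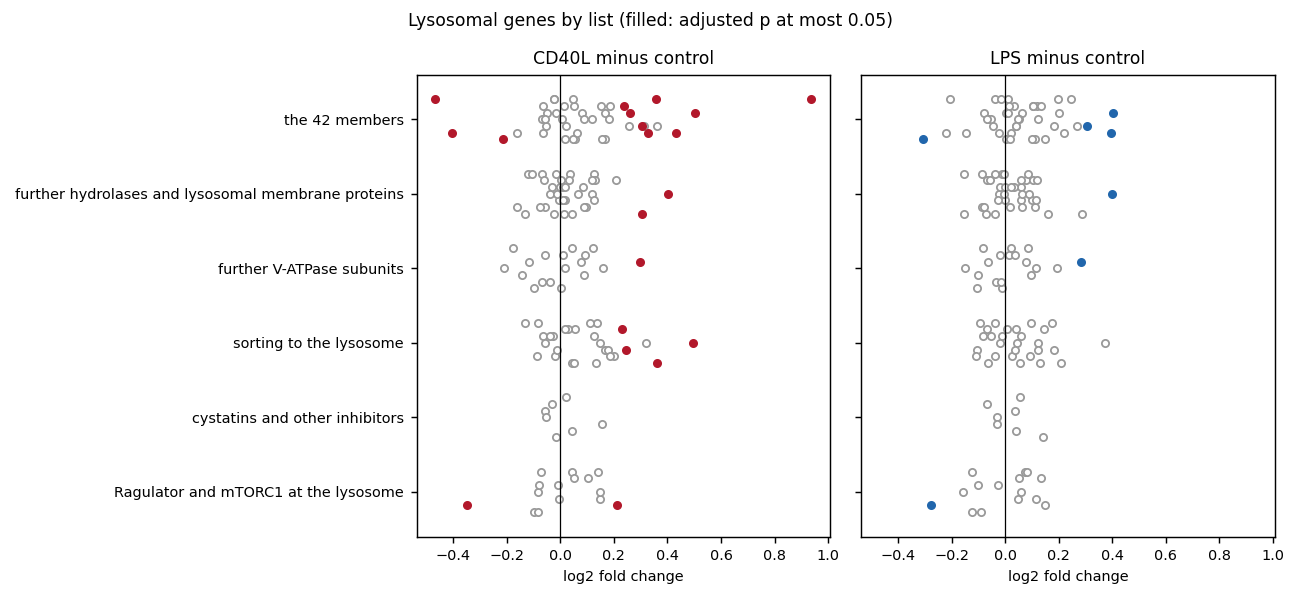
Log2 fold change (x axis) of the 42 genes and of the 105 further lysosomal genes by list (rows), for CD40L minus control and LPS minus control, where each point is a gene, the vertical scatter has no meaning and filled points have an adjusted p of at most 0.05. After CD40L 4 of the 28 sorting genes lie to the right as filled points.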

How the data were processed

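Values were measured on 9 HG-U133 Plus 2.0 arrays of BL2 cells, 3 each for CD40L, LPS and control. Before deposit the authors applied a variance stabilising background correction and normalisation to the probe intensities and took the median polish of each probe set. The deposited values are therefore on a generalised log2 scale. This scale is flatter than log2 for dim probe sets, so their fold changes are understated. The log2 values were taken as deposited, with no further normalisation. The versions of the authors' tools are not given in the sources used here. Sequencing depth does not apply to arrays, and their number limits the precision.

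The table holds 54675 probe sets. After 62 AFFX controls were removed, 54613 were tested, of which 41091 carry the name of 1 gene in the annotation of the platform and 1801 the names of several. Symbols were checked through Entrez identifiers against RefSeq's gene table, with 0 changed. Each gene was measured by the probe set with the highest mean over the 9 arrays. limma 3.58.1 in R 4.3.3 (lmFit and eBayes) was used on the 9 arrays together with terms for the condition and the batch, leaving 4 residual and 11.6 prior degrees of freedom. Tests were two-sided, adjusted by Benjamini-Hochberg over all probe sets tested, with a threshold of 0.05. An exact test of 3 against 3 arrays cannot go below p = 0.1. The fit was tested on simulated data. The batch is a term because the study's methods model it and the labels number the replicates. As a check of this pairing, deviations from group means correlated at -0.181 to 0.466 between arrays of the same number, over 0.1 in 7 of 9 pairs. The p-values measure only the spread between these arrays, which the labels number as biological replicates.

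The genes, the further lists and the tests were chosen with earlier results of these data known. A member is given with its value on each array where it passed the threshold in any comparison, and TFEB, TFE3 and MITF in any case. CTSB, CTSZ, ATP6V1A, IGF2R, FUCA1 and LAMTOR4 were given array by array after their values were seen. The 3 largest changes past the threshold of each further list were to be named, and every called gene of these lists is named. No coordinates of probe sets are given. Promoter windows of 300 bases came from RefSeq (GRCh38.p14).

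Alternatives were no batch term, the batch as a random effect (statmod 1.5.0), a filter on dim probe sets, quantile normalization, each array centred on its median, a fit to the 2 groups of a comparison alone, eBayes with an intensity trend and robust, the probe set of largest change, and each batch and each array left out. For the further lists the same alternatives, save the probe set of largest change, were chosen after seeing the data.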

Additional observations from a re-analysis of the deposited data

Results flagged for a closer look

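CTSH differed between the stimuli: its log2 fold change against control was 0.94 after CD40L and 0.24 after LPS. The difference itself, CD40L minus LPS, was 0.69 (limma adjusted p = 0.000111), and it had the same sign in all 3 batches. Groups of 3 arrays are too small to test for an outlying array.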

How the results depend on the processing

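Of the 42 measured genes, the number higher after CD40L was 8 in the fit with the batch term, 3 with no replicate block, 5 with the replicate block as a random effect, 11 with the probe set of largest change and 4 to 8 with a batch or an array left out. The number lower after CD40L was 3, and 1 with no replicate block, 4 after quantile normalization and 1 to 3 with arrays left out. After LPS 3 were higher, but 1 with no replicate block, 1 with the replicate block as a random effect, 1 with only the 2 groups fitted, and 0 to 4 with arrays left out. After LPS 1 was lower, but 3 after quantile normalization, 2 with the probe set of largest change and 0 to 3 with arrays left out. For CD40L minus LPS 1 gene was higher under every alternative run, and 0 were lower, but 1 with only the 2 groups fitted and 0 to 1 with arrays left out. After LPS the CTSC value was 0.22 on its brightest probe set and -0.28 (limma adjusted p = 0.0198) on its probe set of largest change, which is another one. The cause of the other changes was not tested. The filter on dim probe sets left 28461 and changed none of these counts. Among the 105 further genes 8 were higher after CD40L, but 4 with no replicate block, 5 with the replicate block as a random effect, 3 with only the 2 groups fitted, 5 with an intensity trend and robust eBayes and 2 to 8 with arrays left out. There 1 was lower after CD40L, but 4 after quantile normalization and 1 to 4 with arrays left out. After LPS 2 were higher, but 1 with no replicate block or with it as a random effect and 0 to 4 with arrays left out, and 1 was lower, but 0 in those fits and with the trend and 0 to 1 with arrays left out. CTSL was dim, and 9 arrays from 1 cell line limit all values.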
